A study of Mus musculus with 33 samples.

Results

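Binding of DLX2 was followed across 3 ages of mouse development, e11.5, e13.5 and e16.5 (days of embryonic life), through the peaks called at every one of them in the ganglionic eminences. Every interval of the 3 DLX2 peak lists on chromosomes 1 to 19 and X was taken, and an interval listed once per summit was counted once. This gave 58077 DLX2 peaks, of 129372 peaks in the 9 lists of DLX1, DLX2 and DLX5, and 3 of the 33 samples of the series. The lists held 8341, 17126 and 32610 peaks in order of age.

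The tissue was wild-type CD1 basal ganglia, made up of the progenitor and mantle zones of the lateral, medial and caudal ganglionic eminences. Chromatin was fixed with formaldehyde, sheared by sonication and precipitated with a rabbit DLX2 antibody made in the submitters' laboratory, 1 library per age. The protocol text names e13.5 embryos only, while the samples carry the 3 ages in their own labels, and whether embryos were pooled is not stated there. 4 histone marks were mapped at e13.5 alone, in wild-type and in Dlx1/2-/- basal ganglia (knockout of both genes), by native ChIP with micrococcal nuclease, again with 1 library per mark and genotype. H3K27ac, H3K27me3 and H3K4me3 of the wild type share 1 input in the labels, as do all 4 marks of the knockout, whereas wild-type H3K4me1 has an input of its own. RNA was counted in 4 wild-type and 4 knockout libraries at e13.5.

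DLX2 is a homeodomain transcription factor that binds DNA through short AT-rich motifs and can activate or repress its targets. In the ventral forebrain it is expressed from late progenitors into newborn neurons, and with DLX1 it is required for the differentiation and migration of GABAergic interneurons and for striatal projection neurons. As general background, H3K4me1 is found at enhancers, H3K4me3 at promoters, H3K27ac at active enhancers and promoters, and H3K27me3 at chromatin held by Polycomb.

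The RNA libraries, used here only to check tissue and genotype, held 14.4 M to 117 M counts. Dlx2 stood at 21.1 ± 5.84 CPM (counts scaled to a common library total; SD, n = 4) in wild type, with values from 15.3 to 28.8. In the knockout it was 1.28 ± 0.278 CPM (SD, n = 4), from 1.01 to 1.52, so the groups did not overlap. All 10 ganglionic eminence markers were detected in wild type, among them Gad1 and Gad2, which make GABA, at 121 ± 4.81 and 157 ± 6.55 CPM (SD, n = 4). The 4 cortical markers were detected too, from Emx1 at 10.6 ± 5.40 to Neurod6 at 272 ± 40.1 CPM (SD, n = 4), as were embryonic globin Hbb-y at 1772 ± 114 and the vessel gene Cldn5 at 30.4 ± 8.68 CPM (SD, n = 4). The part of cells from outside the eminences in the peak lists was not tested.

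The DLX2 peaks were narrow at every age. Median widths were 306, 331 and 316 bp in order of age. Together the peaks covered 3.24, 7.01 and 12.8 Mb, or 0.123%, 0.266% and 0.485% of the chromosomes' span. The deposited fold enrichment over input had medians of 4.95, 5.96 and 4.95, with the weakest listed peak at 3.06, 3.45 and 2.83. Each list therefore began at a different strength. For the same fold enrichment, between 5 and 6, the median −log10 q was 8.52 over 1287 peaks of the e11.5 list, 7.27 over 3691 of the e13.5 list and 12.2 over 4315 of the e16.5 list. A peak of given enrichment thus carried a better q in the e16.5 list. The fold enrichment took only 123, 193 and 238 distinct values in the 3 lists, each tied to 1 p-value, so ordering by enrichment and ordering by q differ little within a list. No background that differs from place to place shows in such values, and how the input entered them is not stated, so the enrichments printed here may not be corrected for local input. The read depth of these libraries is unknown from the files, and more peaks at a later age were not read as more binding.

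Most DLX2 peaks of an early age were called again later. Of the 8341 peaks at e11.5, 7190 overlapped an e13.5 peak by at least 1 bp, which is 86.2% (95% Wilson interval 85.4 to 86.9; intervals here cover counting error only and not the spread between libraries), and 90.4% overlapped an e16.5 peak. Of the e13.5 peaks, 84.5% (83.9 to 85.0) were found again at e16.5. In the other direction the shares were lower: 41.2% of e13.5 peaks had a peak at e11.5, 44.1% of e16.5 peaks had one at e13.5 and 22.6% of e16.5 peaks had one at e11.5. With 1 library per age, none of these differences has a test across replicates. The same positions were marked: where a site was called at a pair of ages, the strongest summits lay a median of 27 to 30 bp apart, and 85.0% to 87.7% were within 100 bp.

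Peaks without a counterpart were weaker and narrower at the median than the others of their list. The e11.5 peaks found again at e13.5 had a median enrichment of 5.19 and a width of 325 bp, against 4.01 and 231 bp for the 1151 that were not. The e13.5 peaks found at e16.5 stood at 6.38 and 356 bp, against 4.91 and 241 bp for the 2661 lost ones. The e16.5 peaks already present at e13.5 stood at 6.80 and 424 bp, against 4.24 and 266 bp for the 18214 new ones. Rank within the list showed the same gradient. Each of the 835 peaks in the strongest 10% of the e11.5 list was found at e13.5, compared with 64.0% of the weakest 10%. From e13.5 to e16.5 the share went from 99.9% in the strongest 10% to 69.6% in the weakest.

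**Figure D1:**
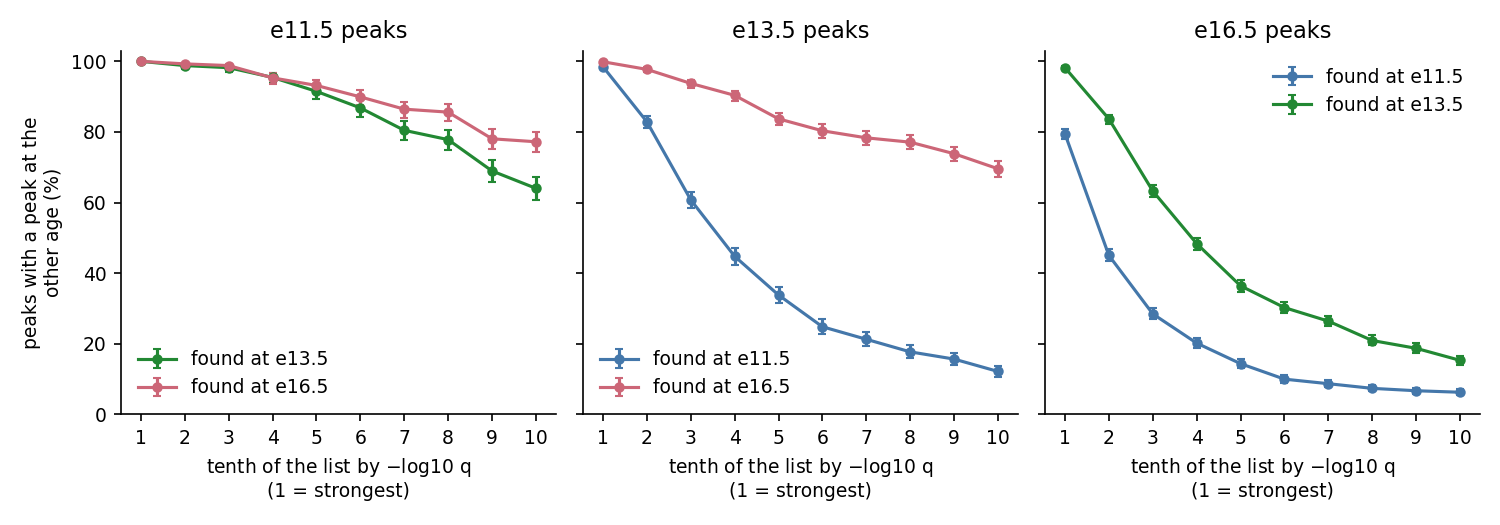
Share of DLX2 peaks (percent, y axis) with a peak at another age by 1 bp overlap, in 10 bins of each list ordered by deposited −log10 q (x axis, 1 is the strongest); points are shares and bars are 95% Wilson intervals. Looking forward from e11.5 and e13.5 the curves stay above 60%, while looking back from e16.5 they go from 98.2% to 15.3% for e13.5 and from 79.4% to 6.3% for e11.5.

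The strongest DLX2 peaks were nearly all called at every age. Of the 1000 strongest peaks at e16.5, 0 lacked a peak at e13.5 and 46 lacked one at e11.5. Of the 1000 strongest at e13.5, 6 lacked a peak at e11.5 and 0 lacked one at e16.5. The 1000 strongest at e11.5 were all found at both later ages. The strong peaks that were absent from another list were thus absent from the shortest one, that of e11.5.

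Joining the 3 lists by overlap gave 35394 merged sites, each placed in 1 of 7 classes by the ages at which it held a peak. The class of e16.5 alone held 17558 sites, or 49.6%. Sites of e13.5 and e16.5 numbered 7459 (21.1%), and sites of all 3 ages numbered 6623 (18.7%; 18.3 to 19.1). Another 2342 sites (6.62%) belonged to e13.5 alone. The remaining classes were small, with 632 sites of e11.5 and e16.5 without e13.5 (1.79%), 478 of e11.5 alone (1.35%) and 302 of e11.5 and e13.5 (0.853%).

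Sites of all 3 ages were the strongest class in each list. Their median enrichment was 5.19, 9.10 and 9.19 in order of age, and their median peak widths were 332, 478 and 516 bp. Sites of e16.5 alone had a median of 4.24 and 265 bp, sites of e13.5 alone 4.91 and 237 bp, and sites of e11.5 alone 3.77 and 228 bp. Across the 6623 sites of all ages, the order of strength was shared most between e13.5 and e16.5 (Spearman's rho 0.82), then between e11.5 and e13.5 (0.73) and least between e11.5 and e16.5 (0.61). These coefficients describe sites within single libraries and carry no p.

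**Figure D2:**
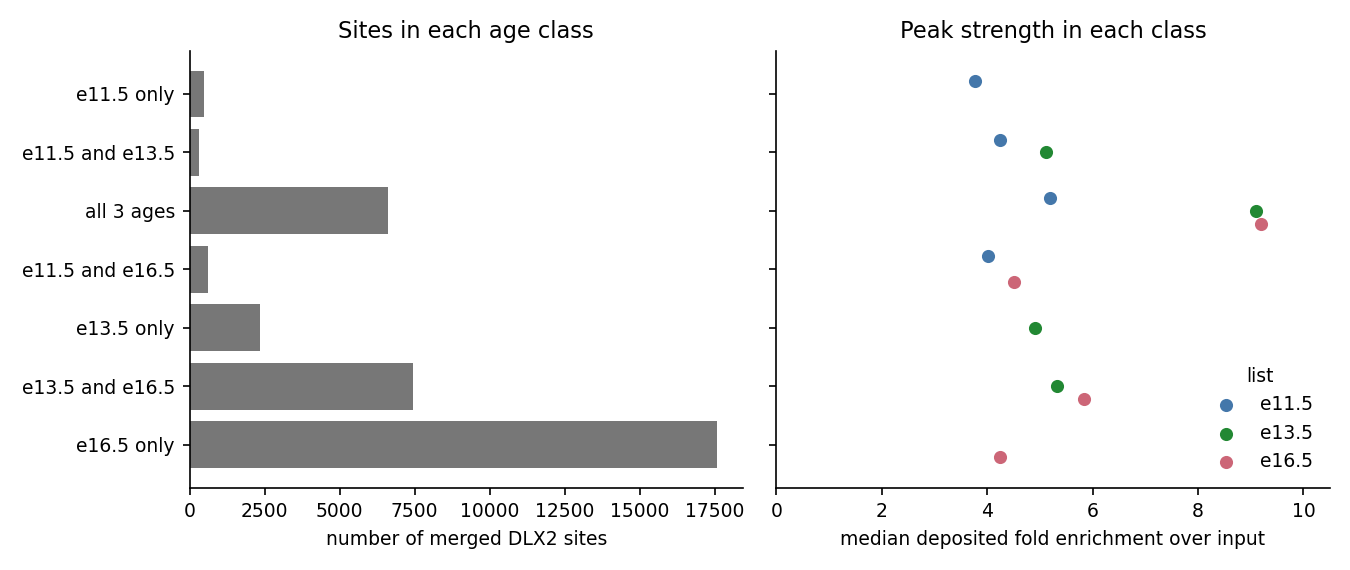
Number of merged DLX2 sites in each age class (left, bars) and median deposited fold enrichment over input of the class in each list that holds it (right, points coloured by age). The 17558 sites of e16.5 alone form the longest bar at a median of 4.24, while sites of all 3 ages reach 9.10 at e13.5 and 9.19 at e16.5.

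Sets of equal size, the 8341 strongest peaks of each age, were compared because the lists differ in length. Neighbouring ages resembled each other more than the ends of the series. Of the top e13.5 peaks, 65.3% (64.2 to 66.3) lay in the top e11.5 set and 69.3% (68.3 to 70.2) in the top e16.5 set, whereas 57.4% (56.4 to 58.5) of the e11.5 set lay in the top e16.5 set. Counted from the other list of each pair, the shares were 67.3%, 68.8% and 55.3%. Among the 1000 strongest the same 3 shares were 74.7%, 70.5% and 59.0%. The e13.5 set was thus closer to e16.5 in the large sets and closer to e11.5 in the small ones, and in both sizes e11.5 and e16.5 shared least.

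At equal size the DLX2 peaks were wider at later ages and stood further apart. Median widths were 306, 438 and 491 bp, and the share of peaks with more than 1 summit was 6.94%, 12.0% and 15.5%. The equal-size sets are cut at a fold enrichment of 3.06, 5.96 and 6.89, so width goes with the strength of the peaks kept, and the part of strength in it was not tested. Among the 1000 strongest peaks the widths were 570, 764 and 759 bp. The share with another peak within 10 kb was 30.9% (29.9 to 31.9), 24.3% (23.3 to 25.2) and 20.2% (19.3 to 21.1), and the median gap was 99.9, 111 and 122 kb. Over all peaks that order was turned around, with 30.9%, 35.9% and 43.0%. When peaks under 1 kb apart were joined, an alternative chosen after seeing the data, the 3 equal-size shares were 20.3%, 18.4% and 15.7%. The order of the ages stayed, with smaller differences.

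**Figure D3:**
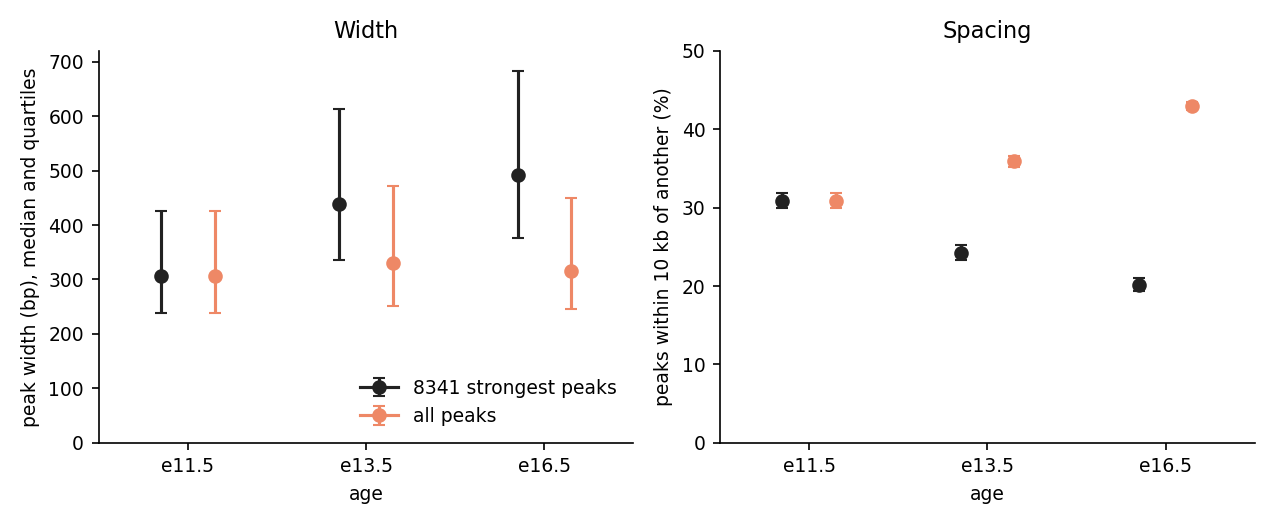
Width of DLX2 peaks in bp (left, points are medians and bars reach the lower and upper quartile) and share of peaks within 10 kb of another peak in percent (right, bars are 95% Wilson intervals) at each age, for the 8341 strongest peaks and for all peaks. In the equal-size sets spacing goes from 30.9% to 20.2%, and over all peaks from 30.9% to 43.0%.

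Of the 5 clusters with most DLX2 peaks at each age, most held 10 or more peaks at all 3 ages. Recurrence was not counted over the other clusters. Clusters of at least 5 peaks joined at gaps of up to 12500 bp numbered 51, 38 and 22 in the equal-size sets, and 51, 172 and 403 in the full lists, where they held 5.12%, 7.47% and 8.81% of the peaks. The cluster with most peaks in each full list lay on chromosome 2 (mm9, chr2:77707674-77865145), with 29, 82 and 50 peaks in order of age, so the e13.5 list had most peaks there. H3K4me1 covered 14.1% of its length at e13.5 and H3K27ac 5.00%, so most of it was free of these marks. The cluster at chr13:83854644-83890069 held 17, 22 and 26 peaks and was covered to 100% by H3K27ac and by H3K4me3, and to 0% by H3K27me3. The cluster at chr12:50470019-50504166 held 10, 19 and 36 peaks. A run at chr7:38960742-38986336 went the other way, with 20, 3 and 14 peaks. The cluster at chr9:2999874-3038374 held 23, 23 and 22 peaks. H3K27me3 covered 74.5% of it, H3K4me3 73.5% and H3K4me1 0%. Whether such runs lie in repeats was not tested.

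Merged sites were also spread unevenly over chromosomes. Autosomes held from 11.8 to 16.6 DLX2 sites per Mb, and X held 2.99 per Mb. The share of peaks on X was alike at the 3 ages, at 1.32%, 1.41% and 1.38%. A median window of 1 Mb held 13 sites. The window at 34 to 35 Mb of chromosome 3 held 63, of which 29 were called at all ages and 55 carried H3K4me1 at e13.5.

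Single sites differed in how their enrichment at the 3 ages compared. Enrichments come from lists of different libraries and, by the labels, different inputs and are set side by side as deposited, not on a common scale. The site at chr17:39979798-39985915, 6118 bp wide, had the highest enrichment of every DLX2 list, 87.0, 65.2 and 64.7. It also had histone peaks of all 4 marks with a fold enrichment between 9.40 (H3K27ac) and 27.5 (H3K4me3), with H3K27me3 at 18.1. The knockout held all 4 marks there too, and DLX1 and DLX5 had a peak at e13.5. No filter for repeats or regions of high background was applied to the lists. Whether such signal makes up the highest enrichments was not tested. Most of the sites next in rank had their lowest enrichment at e11.5. One of them, chr9:35112652-35113240, was highest at e11.5, with 54.5, 48.5 and 42.6, and held all 4 marks. At chr7:116334362-116335786 the values were 27.6, 45.8 and 50.2, at chr14:22070801-22072334 they were 25.9, 46.8 and 47.2, and at chr19:59117574-59119426 they were 27.3, 44.3 and 45.4. Each of these 3 carried H3K4me1 and a DLX1 and a DLX5 peak at e13.5. Their wild-type H3K27ac peaks had a −log10 q of 3.29, 2.93 and 0.859, below the 5 needed here to count as a mark. In the class of e13.5 and e16.5, chr3:135772478-135773055 went from 10.8 to 30.2 and chr5:53891747-53892478 from 9.31 to 27.9. At neither did a wild-type peak of the 4 marks reach a −log10 q of 5. Weaker wild-type H3K4me1 peaks were listed there, at 2.34 and 4.08. At chr2:115075572-115076701 the values were 22.5 and 28.8, with H3K4me1. The 17 merged sites of 5 kb or more were all called at all ages, and all 17 held a DLX1 and a DLX5 peak at e13.5. Among all sites of all ages, 55.9% and 30.7% held one. The widest, chr11:3080569-3100132, measured 19564 bp and held 35 summits at e16.5. Its wild-type enrichments were 16.9 for H3K27me3 and 14.5 for H3K4me3. Whether these wide sites lie in repeats was not tested. Without single peaks of 5 kb or more, 86.2% of e11.5 peaks were found at e13.5 and 84.3% of e13.5 peaks at e16.5.

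DLX2 sites were read against the wild-type marks of e13.5, counting histone peaks whose −log10 q reached 5. Of all 35394 sites, 54.4% held H3K4me1, a mark covering 6.32% of the span. H3K4me3 was present at 43.8% (3.11% of the span), H3K27ac at 26.1% (1.70%) and H3K27me3 at 18.5% (2.37%). None of the 4 marks was present at 31.1%. Marks were not mapped at e11.5 or e16.5, so for sites of those ages alone they give the state at e13.5, when no DLX2 peak was called there.

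At this threshold the classes ranged widest in H3K4me1, which did not hold with every deposited histone peak or at a −log10 q of 10 or more, where H3K4me3 ranged wider. H3K4me1 was present at 75.4% (74.4 to 76.5) of sites of all 3 ages and at 80.1% (75.3 to 84.2) of those of e11.5 and e13.5. Sites of e13.5 and e16.5 had it at 61.4%, sites of e13.5 alone at 50.2% and sites of e16.5 alone at 43.4% (42.7 to 44.2). The difference of 32.0 percentage points between sites of all ages and those of e16.5 alone was 31.4 when only the midpoint of the site was read. It was 19.7 when histone peaks needed a −log10 q of 10 or more and 9.75 when every deposited histone peak was used. H3K27ac did not follow this order, with 26.6% (25.6 to 27.7) at sites of all ages and 25.2% (24.6 to 25.9) at those of e16.5 alone, near the 26.1% of all sites. With every deposited H3K27ac peak, however, the gap between these classes grew from 1.40 to 16.8 percentage points. For H3K4me3 the gap was 8.25 points, with 49.9% against 41.6%, and it turned to −1.21 points when peaks needed a −log10 q of 10 or more. At the threshold of 5, sites of all ages most often held H3K4me1 without H3K27ac, at 56.0%, against 38.8% of all sites and 30.0% of those of e16.5 alone. H3K4me1 together with H3K27ac was found at 19.4%, 15.5% and 13.4%. These states depend on the threshold, which kept 8883 of 289481 wild-type H3K27ac peaks and 41856 of 226887 H3K4me1 peaks. With every deposited H3K27ac peak, 92.5% of sites of all ages held that mark.

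**Figure D4:**
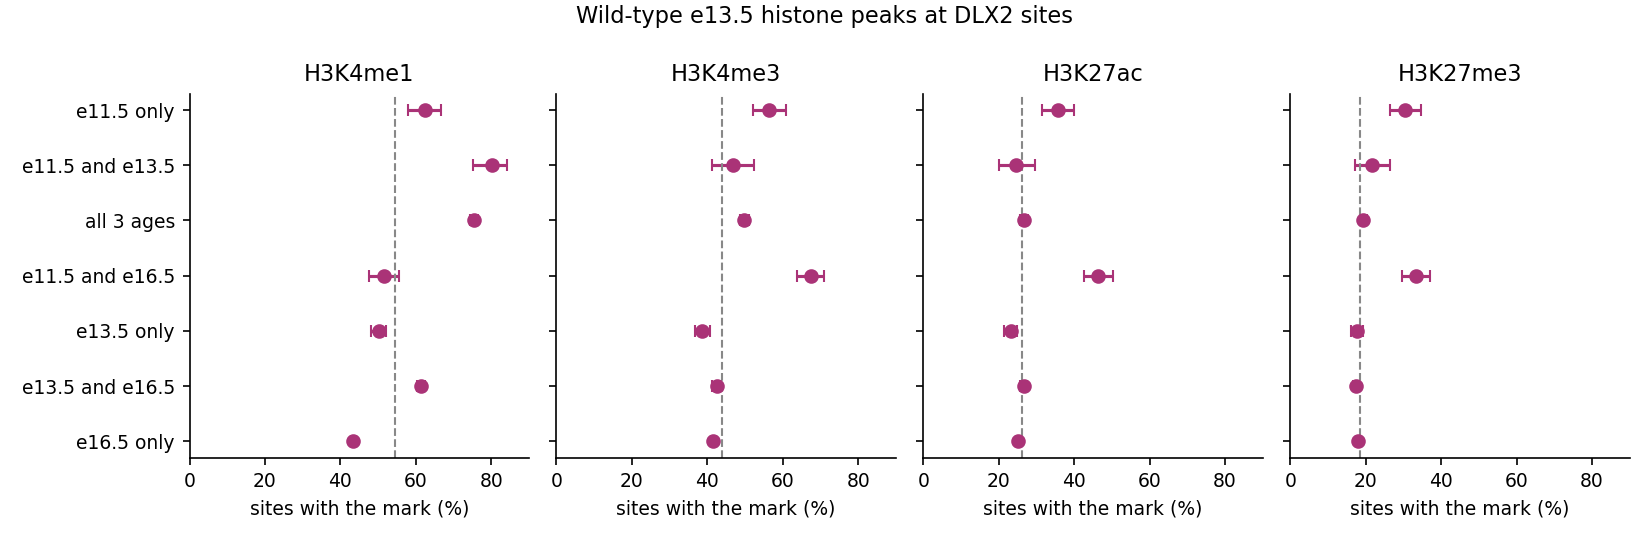
Share of merged DLX2 sites (percent, x axis) that overlap a wild-type e13.5 histone peak, by age class, 1 panel per mark; bars are 95% Wilson intervals and the dashed line is the share over all 35394 sites. H3K4me1 runs from 43.4% at sites of e16.5 alone to 80.1% at sites of e11.5 and e13.5, and the 632 sites of e11.5 and e16.5 lie highest for H3K4me3, H3K27ac and H3K27me3 at this histone threshold (−log10 q of 5).

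The sites called at e11.5 and e16.5 but not at e13.5 held 3 of the marks more often than all sites did. Of these 632 sites, 67.4% (63.7 to 70.9) held H3K4me3, 46.4% (42.5 to 50.3) H3K27ac and 33.2% (29.7 to 37.0) H3K27me3, each above the share over all sites at this threshold, while H3K4me1 stood at 51.6%. Sites of e11.5 alone came next for the same 3 marks, at 56.5%, 35.6% and 30.3%. Both classes were weak, with median enrichments of 4.01 and 4.51 for the former at e11.5 and e16.5. Sites with an e16.5 peak were also split into 4 bins by e16.5 −log10 q, chosen after seeing the data. In the weakest bin the former class held these marks at 70.4%, 46.2% and 33.3%, and sites of e13.5 and e16.5 at 65.2%, 44.6% and 29.2%. In the bin below the strongest the shares were 70.3%, 50.8% and 36.8%, against 44.5%, 27.9% and 17.3%. Sites of all ages in that bin stood between, at 62.1%, 38.0% and 27.7%. In the strongest bin the former class, 76 sites, fell to 40.8%, 23.7% and 15.8%. Sites of e13.5 and e16.5 stood there at 21.7%, 10.1% and 5.91%, and sites of all ages at 43.5%, 20.7% and 14.4%.

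Sites were split into 4 bins of equal size by their e13.5 −log10 q, an alternative chosen after seeing the data. At sites of all ages H3K4me3 was present at 75% of the weakest and 42.7% of the strongest bin, H3K27ac at 54.0% and 18.96%, and H3K27me3 at 40.8% and 13.3%. H3K4me1 went the other way, from 60.4% (56.0 to 64.7) to 80.2% (78.9 to 81.5). Binned by e16.5 −log10 q instead, H3K4me1 at these sites showed no such gradient, with 75.5%, 71.1%, 74.4% and 76.2% from the weakest bin to the strongest, while H3K4me3 still stood at 61.6% in the weakest and 43.5% in the strongest. In the weakest bin of e13.5, H3K4me1 was present at 64.0% of sites of e13.5 alone and 59.5% of those of e13.5 and e16.5, close to the sites of all ages. In the weakest bin of e16.5 the classes stayed apart, with 49.1% at sites of e16.5 alone, 66.3% at those of e13.5 and e16.5 and 75.5% at those of all ages. In the strongest bin of e13.5 the sites of e13.5 alone, 75 in number, held H3K4me1 at 6 sites, or 8% (3.72 to 16.4), and 65 of the 75 held none of the 4 marks. The 437 of the bin below held H3K4me1 at 24.5% and no mark at 71.9%. Sites of e16.5 alone went the same way from the weakest to the strongest bin of e16.5. Their H3K4me1 share went from 49.1% to 30.4% and their share without any mark from 28.2% to 63.6%. Over these bins the share without any mark went from 13.8% to 39.2% at sites of e13.5 and e16.5, and from 9.68% to 17.0% at sites of all ages.

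Strong DLX2 sites of e13.5 often held a DLX1 peak as well. DLX1 was mapped at e13.5 with an input of its own in the labels. In the strongest bin it had a peak at 61 of the 75 sites of e13.5 alone, or 81.3% (71.1 to 88.5). The share was 74.3% of all 4182 sites of that bin, of which 3608 were sites of all ages. Sites of all ages stood at 77.8% there and sites of e13.5 and e16.5 at 48.5%. DLX5 had a peak at 4 of the 75, or 5.33% (2.09 to 12.9). In the same bin DLX5 had one at 43.2% of all sites and 17.7% of those of e13.5 and e16.5. In the bin below, DLX1 was present at 50.8% of sites of e13.5 alone and 30.8% of all sites. In the weakest bin it was present at 5.02% of sites of e13.5 alone and 9.83% of all sites. The strongest site of e13.5 alone was chr4:105601394-105601719, with an enrichment of 14.5, followed by chr4:80631044-80631371 at 13.7 and chr12:73194095-73194427 at 13.1. All 3 were between 326 and 333 bp wide, held no mark and had a DLX1 peak.

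**Figure D5:**
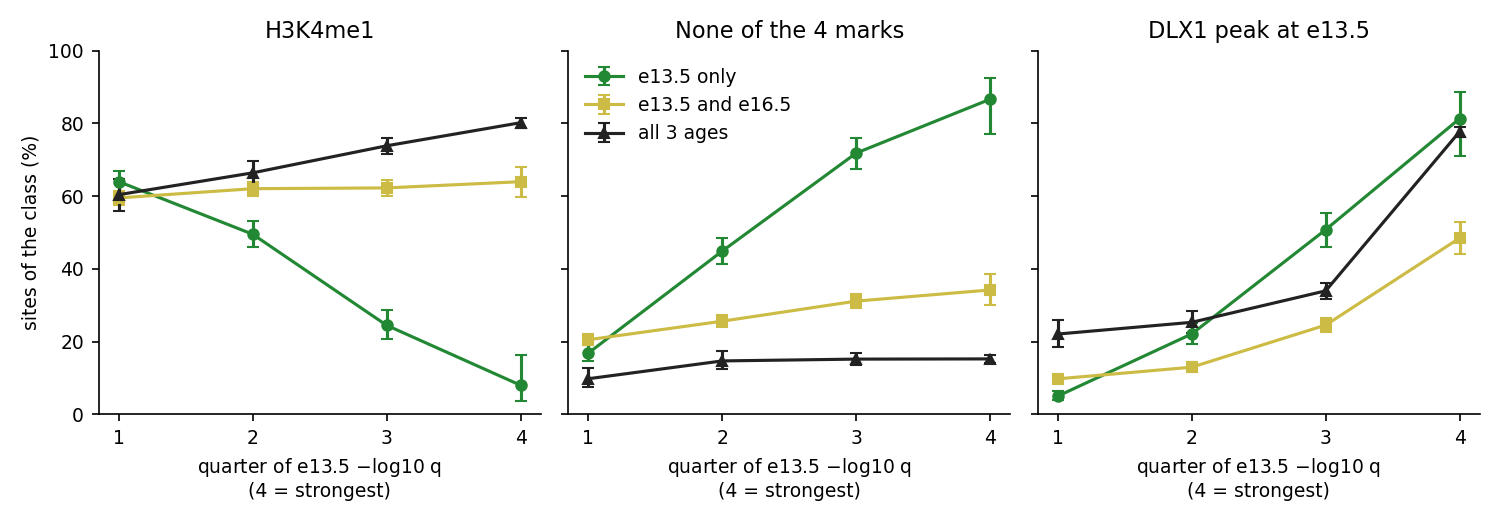
Share of DLX2 sites (percent, y axis) with H3K4me1, with none of the 4 marks and with a DLX1 peak at e13.5, in 4 bins of e13.5 −log10 q (x axis, 4 is the strongest) for 3 age classes; bars are 95% Wilson intervals. At sites of e13.5 alone H3K4me1 goes from 64.0% to 8% and the share without any mark from 16.8% to 86.7%, while sites of all ages go from 60.4% to 80.2% for H3K4me1.

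Over all classes, DLX1 had an e13.5 peak at 17.6% of DLX2 sites and DLX5 at 7.45%. Their e13.5 lists differ in length, with 8459 and 2951 peaks covering 0.105% and 0.0391% of the span. A lower DLX5 share was therefore not read as less sharing with DLX2. At sites of all 3 ages the shares were 55.9% (54.7 to 57.1) and 30.7% (29.6 to 31.8). Counting only DLX1 and DLX5 peaks whose −log10 q reached 10 lowered them to 25.03% and 6.95%. Sites of e13.5 alone stood at 21.5% and 1.49%, and sites of e13.5 and e16.5 at 17.3% and 5.04%. The 632 sites of e11.5 and e16.5, which have no DLX2 peak at e13.5, still held a DLX1 peak of that age at 18.8% (15.97 to 22.1), but at only 1.42% when DLX1 peaks needed a −log10 q of 10 or more. Sites of e13.5 alone went from 21.5% to 15.5% under the same rule. Sites of e16.5 alone had one at 3.28%. Overlap with DLX1 and DLX5 at the other ages is not given, because there the factors share an input in the labels.

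For each mark the authors deposited regions higher in either genotype and regions common to both. The first set was read as higher in wild type, since 96.7%, 97.6%, 90.7% and 80.8% of its regions for H3K27ac, H3K27me3, H3K4me1 and H3K4me3 carried their stronger peak in wild type. The second set, for which 77.6% to 91.1% did so in the knockout, was read as higher in the knockout. These are differences between single libraries, and the regions have no replicate check. Marks that share an input are not independent of each other.

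Regions higher in wild type held DLX2 sites of all ages more often than common regions did, for 3 of the 4 marks. A DLX2 site of any class lay in 56.1% of H3K4me3 regions higher in wild type, in 25.3% of those higher in the knockout and in 41.6% of common ones. The same shares were 38.0%, 13.8% and 35.1% for H3K27ac, 37.7%, 2.83% and 16.4% for H3K4me1, and 2.21%, 10.3% and 20.9% for H3K27me3. Counting sites of all ages alone, 129 of 360 H3K4me3 regions higher in wild type (35.8%; 31.1 to 40.9) held a site of all ages, compared with 6.48% of 1683 regions higher in the knockout and 11.6% of the common ones. For H3K27ac the shares were 24.6% of 700 (21.5 to 27.9), 5.87% of 545 and 9.75%. For H3K4me1 they were 10.7% of 2936 (9.60 to 11.8), 0.839% of 1906 and 4.42%. H3K27me3 differed, with 0.899% of 5116 regions higher in wild type, 4.38% of 662 higher in the knockout and 4.79% of the common ones. The regions were not split by chromosome, and X, with 2.99 DLX2 sites per Mb, was included. The part of X in the H3K27me3 shares was not tested. Common regions were longer, at medians of 874 to 1167 bp against 458 to 602 bp, which gives them more room for a site.

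Seen from the sites, a small share lay in a changed region of any mark, though such regions also cover little of the span. H3K4me1 was higher in wild type at 3.12% of all DLX2 sites (regions covering 0.0711% of the span) and higher in the knockout at 0.164% (0.0372%). By class the first share was 4.48% at sites of all ages, 4.81% at those of e13.5 and e16.5 and 2.23% at those of e16.5 alone. For H3K27ac the shares over all sites were 0.808% and 0.243%, in regions covering 0.0184% and 0.0110% of the span. Its share higher in wild type was 2.43% (2.09 to 2.83) at sites of all ages against 0.279% (0.211 to 0.369) at those of e16.5 alone. H3K4me3 was higher in wild type at 0.664% of all sites (0.0111% of the span) and higher in the knockout at 1.29% (0.0372%). Its share higher in wild type was 2.02% at sites of all ages and 0.211% at those of e16.5 alone. For H3K27me3 the shares over all sites were 0.359% and 0.212%, in regions covering 0.167% and 0.0147% of the span. Read at the midpoint of each site, the shares higher in wild type at sites of all ages were 0.997% for H3K27ac, 2.51% for H3K4me1 and 1.28% for H3K4me3. Merged sites of all ages had a median width of 585 bp, against 265 bp for those of e16.5 alone. The part of width in the class differences was not tested.

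The highest log10 likelihood ratios of regions higher in wild type that held a DLX2 site lay in 1 stretch of chromosome 2 for all 4 marks, at 187 for H3K27ac, 180 for H3K27me3, 117 for H3K4me1 and 262 for H3K4me3. Dlx1 and Dlx2 lie on chromosome 2 per RefSeq. Whether the stretch is the deleted locus, where a mark would be missing with its DNA, was not tested, as no mm9 annotation was used. The DLX2 site at chr2:71372631-71374809 in it had enrichments of 18.4, 35.1 and 44.4 at the 3 ages, and that at chr2:71365469-71367315 had 14.4, 29.6 and 28.1. In the opposite direction, regions with a DLX2 site reached ratios of 39.1 for H3K27me3, on chromosome 17, and 31.3 for H3K4me3. That H3K4me3 region, chr2:71384627-71389710, began past the end, at 71384091, of the H3K4me3 region higher in wild type. The DLX2 sites at chr13:95641178-95642599 and chr13:95643996-95644886 overlapped regions where H3K27ac and H3K4me1 were higher in the knockout. Their DLX2 enrichments were 3.54, 6.38 and 7.42 for the former and 4.48, 5.33 and 3.71 for the latter. In the same site order, the ratios of the overlapped regions were 10.98 and 19.8 for H3K27ac and 8.24 and 6.23 for H3K4me1. These were far below the ratios of the regions higher in wild type on chromosome 2. The H3K4me1 peak at both sites was nearly equal, at 3.63 in wild type and 3.70 in the knockout. The H3K27ac peak there stood at 2.07 and 3.68, and the H3K27me3 peak at 11.8 and 10.02.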

How the data were processed

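DLX2 ChIP-seq of 3 ages, histone ChIP-seq and RNA-seq at e13.5 were used as the authors deposited them. The submitters' processing notes list BWA 0.7.16a, MACS2, SAMtools, deepTools, Trim Galore, bcl2fastq and STAR 2.4.2a, with build mm9. The deposited peak lists give per peak a fold enrichment ratio, named as over input, and a −log10 p-value and q-value. In the DLX2 lists each fold goes with 1 p-value, so local input may not have entered it. The deposited comparisons of genotypes give a log10 likelihood ratio as each region's score. The deposited RNA table holds counts per gene, scaled here to CPM by each library's total. The lists' names carry an unexplained tag, so a list could stand for more than 1 library. ChIP depth is unknown.

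Identical intervals were counted once, lists were compared by 1 bp overlap, and merged sites were classed by age. Position rules named sites: the 10 all-age sites with the best worst rank, the 3 strongest of each other class, the 3 with most e16.5 summits, the 5 clusters with most peaks per age and the 5 fullest windows of 1 Mb. Sites of chromosome 18 were counted and not named. The changed-region sites were chosen after their values were seen. Peaks tied in q at the edge of an equal-size set were taken by position. Overlap code was tested on simulated data. Python 3.11.15, pandas 2.3.3, numpy 2.4.6 and scipy 1.17.1 were used, with edgeR 4.0.16 for TMM factors alone. No mm9 genome or annotation was used here, so no sequence or gene is given for a site and the motif search was not run. Members, lists and rules were chosen with earlier results of these data known.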

Additional observations from a re-analysis of the deposited data

Results flagged for a closer look

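In knockout replicate 3, Gad1 stood at 65.01 CPM, far above the other 3 knockout libraries, the 1 outlying library among 32 groups of 4 checked. Chance alone flags about 1 in 20 such groups. Peaks on chromosome Y and on random or unplaced contigs, which entered no comparison, numbered 37, 26 and 48 in the DLX2 lists in order of age.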

How the results depend on the processing

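Of the main results, the shares of DLX2 peaks found at another age moved with the threshold and the overlap rule and kept their order. With DLX2 peaks of −log10 q at least 10, the share of e11.5 peaks found at e13.5 was 93.4%, of e13.5 peaks found at e16.5 89.6% and of e16.5 peaks present at e13.5 39.5%. With overlap of at least 50% of the shorter peak they were 84.7%, 83.2% and 43.3%, and with summits within 100 bp 73.0%, 72.8% and 38.2%. The share of sites at all 3 ages was 15.4% at the stricter threshold. Among 1000 peaks, 74.7% of e13.5 peaks were in the e11.5 set, 70.5% in the e16.5 set, and 59.0% of e11.5 peaks were in the e16.5 set. Over all peaks the median width was 331 bp at e13.5 and 316 bp at e16.5, and the shares within 10 kb of another were 35.9% and 43.0%. Within 50 kb the shares at the 3 ages were 56.0%, 52.2% and 48.3%, and with peaks under 1 kb apart joined 20.3%, 18.4% and 15.7%.

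The difference in marks between sites of all ages and of e16.5 alone was, with every deposited histone peak, 16.8 points for H3K27ac, 7.88 for H3K27me3, 9.75 for H3K4me1 and 24.1 for H3K4me3. At a histone −log10 q of at least 10 it was 19.7 points for H3K4me1 and reversed to −1.21 for H3K4me3, and the cause was not tested. H3K27me3 was highest at sites of e11.5 alone, not of e11.5 and e16.5, under all 3 alternatives for histone peaks. With every deposited histone peak, sites of e11.5 and e13.5 were highest for H3K27ac (93.4% against 86.2% at sites of e11.5 and e16.5) and H3K4me3 (97.0% against 89.6%). Read at site midpoints, the shares of all-age sites in regions higher in wild type and in the knockout were 0.997% and 0.136% for H3K27ac, 0.377% and 0.242% for H3K27me3, 2.51% and 0.106% for H3K4me1, and 1.28% and 0.649% for H3K4me3. With DLX1 and DLX5 peaks of −log10 q at least 10, 25.03% and 6.95% of all-age sites held them. The ratio of medians of kept over lost peaks was 1.93 in −log10 q and 1.29 in fold enrichment from e11.5 to e13.5, and 1.62 and 1.30 from e13.5 to e16.5. Leaving out each RNA library gave Dlx2 means from 18.5 to 23.0 CPM in wild type and 1.19 to 1.36 CPM in the knockout, and TMM factors 21.2 and 1.27 CPM.

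No paired analysis was possible because these results come from no test and each age has 1 library. Age, library, input and depth cannot be told apart, nor can any antibody batch, which the labels do not give. A peak that is not called can be a weak one.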
